A study of Drosophila melanogaster with 12 samples.

Results

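The genes described here encode the factors that start, extend and end protein synthesis on ribosomes. They were taken as the rows of the deposited expression table whose gene name begins with eIF, eRF, eEF, or Ef followed by a digit or T. The rule used names alone and found 36 of the 15104 genes. All 36 reached 1 FPKM (fragments counted per kilobase of transcript, scaled to the fragments of the library) in at least 1 group, and 30 of them reached 5 FPKM in every group.

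The study profiled the RNA bound by ribosomes of 3 cell types in the heads of adult Drosophila melanogaster. All flies were of the 2202U background and carried UAS-GFP-L10A, a ribosomal protein tagged with green fluorescent protein that Gal4 switches on. Neurons were tagged in Elav-Gal4/+;UAS-GFP-L10A/+ flies, glia in repo-Gal4/+;UAS-GFP-L10A/+ flies, and the fat body, the fly's counterpart of liver and adipose tissue, in UAS-GFP-L10A/+;takeout-Gal4/+ flies. Lysates were made from 1000 heads. Polyadenylated RNA was sequenced from the whole lysate, called Input, and from what an antibody against GFP pulled down, called IP. The 12 samples form 6 groups of 2 biological replicates, and each replicate pools 4 technical ones. Each cell type is defined by where its Gal4 driver is active, and the Input of each genotype is RNA of the whole head.

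The table gives 1 FPKM value per group, combined over both replicates by the authors, and the authors' q-value for each pair of IPs. Every FPKM below is such a value of the authors. No spread between replicates could be computed, the read depth is unknown, and the authors' q under 0.05 is the only test. Where no q exists, a gene was counted as higher or lower past 2-fold of (FPKM + 1), which is not a test. In RNA of a whole lysate or a pull-down, fewer cells of a type and less RNA per cell cannot be told apart.

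Initiation begins when eIF2 brings the initiator tRNA to the small ribosomal subunit, with eIF1A and the large eIF3 complex. The eIF4F complex (the cap-binding protein eIF4E, the scaffold eIF4G and the helicase eIF4A) brings the mRNA. eIF5 triggers GTP hydrolysis by eIF2, eIF2B reloads eIF2 with GTP, eIF5B joins the large subunit, and eIF6 keeps free large subunits from joining too early. eEF1A then delivers each aminoacyl-tRNA, eEF1B recharges eEF1A with GTP, eEF2 moves the ribosome along, and eRF1 recognises the stop codon.

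The purified fractions could be told apart by their markers, with reserves for neurons and the fat body. All 6 glial markers were highest in the glia IP, where their sum was 3472 FPKM against 1038 in neurons and 1492 in the fat body. Gs2 supplied 2344 of the 3472 FPKM. The 8 fat body markers summed to 50348 FPKM in the fat body IP, against 5614 in neurons and 6493 in glia. Yp1, Yp2 and Yp3 supplied most of the 50348 FPKM, and Fbp1 and Fbp2 were below 1 FPKM in every group. The marker to was highest in the glia IP. The 6 neuronal markers in the table summed to 378 FPKM in the neuron IP, 52.8 in glia and 92.9 in the fat body, but their sum in the neuron Input was 602 FPKM. The gene n-syb supplied 332 of the 378 FPKM, and all 6 were below their neuron Input, elav at 3.48 against 15.03 FPKM. Eye markers summed to 30550.2 FPKM in the neuron IP and 12577 in its Input, and to 4193 and 8222 in the IPs of glia and fat body. Arr1, Arr2 and ninaE supplied most of the neuron IP sum. The eye gene norpA was below its neuron Input, at 64.0 against 196 FPKM. Muscle markers summed to 464, 178 and 348 FPKM in the IPs of neurons, glia and fat body, and hemocyte markers to 29.2, 12.5 and 72.9. Of these hemocyte sums, Pxn supplied 21.4 of the 29.2 FPKM and srp 66.1 of the 72.9. In the fat body Pxn, Hml and eater were below their Input. None of these markers was at 0 in any group, and their part in the results below was not tested.

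In whole-head RNA most translation factors were nearly the same in the 3 genotypes. Of the 36, 4 differed by 2-fold between the glia and neuron Inputs (11.2% of all genes did), 0 between fat body and neurons (0.942%) and 3 between fat body and glia (8.33%). Those that differed are low-expressed copies of eIF4E described further on. The 30 genes other than the eIF4E and eIF4G copies, all at 5 FPKM or more in every group, had 0 differences, where of all genes at that level 0.572% were higher and 0.411% lower in the glia than in the neuron Input. Together the 36 genes held 1.96% of all FPKM in the neuron Input, 1.94% in the glia Input and 2.01% in the fat body Input. In the IPs they held 0.893% in neurons, 1.04% in glia and 1.57% in the fat body, so their share was below that of the Input in every cell type and nearest to it in the fat body.

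**Figure D1:**
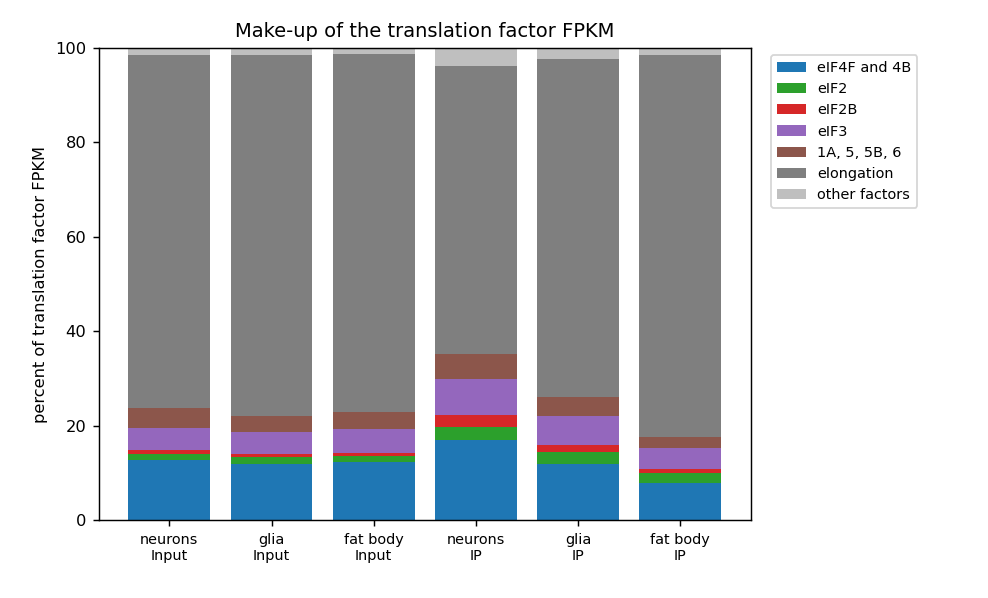
Share of the summed FPKM of the 36 translation factor genes held by elongation factors and 5 groups of initiation factors, in percent, with 1 bar per Input and IP of neurons, glia and fat body. The lightest segment holds all other factors. The 3 Inputs look alike, with elongation factors at 74.8% to 76.3%, whereas the IPs spread from 60.8% in neurons to 80.9% in the fat body.

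The make-up of the group also differed between IPs. Elongation factors made up 74.8%, 76.3% and 75.8% of the translation factor FPKM in the Inputs of neurons, glia and fat body. In the IPs they made up 60.8% in neurons, 71.5% in glia and 80.9% in the fat body. Genes of the eIF4F complex with its helper eIF-4B ran the opposite way, at 16.9% in the IP of neurons, 12.0% in that of glia and 7.79% in that of the fat body, against 12.0% to 12.8% in the Inputs. These shares are taken within 1 column each and do not depend on how the columns were scaled to one another, which matters here because the FPKM of all genes summed to 1704810 in the fat body IP and to 839267 and 839886 in the neuron and glia IPs.

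Among the 7 elongation genes, Ef1alpha48D, the main eEF1A gene, was the most abundant factor in every group. It had 4350.1 FPKM in the neuron Input, 3952 in the glia Input and 4158 in the fat body Input. In the IPs it had 1545 FPKM in neurons, 2982 in glia and 11055 in the fat body. The order of the IPs was thus neurons, glia, fat body, with the neuron and glia values below their Inputs and the fat body value above. The authors' deposited table gives Ef1alpha48D a q of 1 for all 3 pairs of IPs despite these ratios. It shares this entry with 2003 genes in all, of which 6 had 100 FPKM or more in every group, and whether it was tested by the authors is not given in the sources used here.

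The second eEF1A gene, Ef1alpha100E, went against its partner. Its Inputs had 359.5 FPKM in neurons, 254 in glia and 294 in the fat body. Its IPs had 381 FPKM in neurons, 59.7 in glia and 111 in the fat body, so on the deposited scale the neuron IP alone kept the level of its Input. Under median and total scaling the log2 of its neuron IP over Input was -0.50 and -0.49. As deposited, the neuron IP was 6.38-fold above the glia IP (q = 6.78e-12) and 3.44-fold above the fat body IP (q = 5.96e-06), and the fat body was 1.85-fold above glia (q = 1.05e-06), all q from the authors' deposited table. Total scaling multiplies the fat body IP by 0.546 and the glia IP by 0.949, which narrows the last ratio. Of the 36 genes it was the 1 gene with a q under 0.05 in all 3 pairs.

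Read as a share of both eEF1A genes, Ef1alpha100E supplied 7.63%, 6.04% and 6.60% of their FPKM in the Inputs of neurons, glia and fat body. The share was 19.8% in the IP of neurons, 1.96% in that of glia and 0.991% in that of the fat body. Ef1alpha48D accordingly exceeded its partner 4.06-fold in the neuron IP and 99.9-fold in the fat body IP, and 12.1-fold to 15.6-fold in the Inputs. The pair are similar in sequence, and how the authors' counting divided shared reads between them is not given in the sources used here, so both values are uncertain to that extent.

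**Figure D2:**
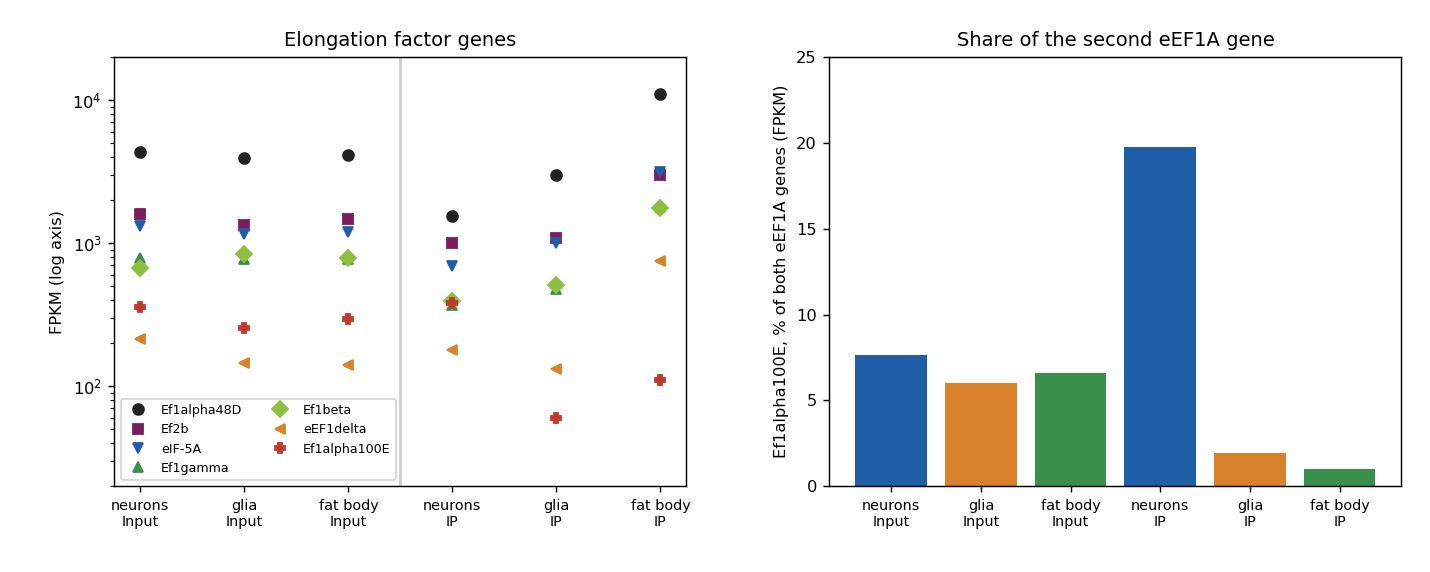
Left, FPKM (log axis) of the 7 elongation factor genes in the Input and IP of each cell type, 1 value per group; right, Ef1alpha100E as percent of the FPKM of both eEF1A genes, from 0.991% in the fat body IP to 19.8% in the neuron IP. Ef1alpha100E is highest in the neuron IP (381 FPKM), while the other 6 are highest in the fat body IP, up to 11055 FPKM for Ef1alpha48D.

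The remaining elongation genes behaved much alike. Ef1beta and Ef1gamma, subunits of the exchange factor eEF1B, had 674 and 789 FPKM in the neuron Input, 845 and 779.6 in the glia Input, and 793 and 772 in the fat body Input. In the IPs Ef1beta had 396 FPKM in neurons, 509 in glia and 1765 in the fat body, and Ef1gamma had 367, 479 and 1779. Their ratio to each other stayed between 0.855 and 1.08 in all 6 groups.

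A further eEF1B subunit, eEF1delta, had 213, 145 and 140.1 FPKM in the Inputs of neurons, glia and fat body. Its IPs had 178 FPKM in neurons, 131 in glia and 752 in the fat body. The last value was 5.74-fold the glia IP, the widest such ratio of the 7 elongation genes, with a q listed as 0 in the authors' deposited table. Relative to Ef1beta it did not hold a fixed ratio, with 0.316 in the neuron Input and 0.450 in the neuron IP, against 0.177 and 0.426 in the fat body Input and IP.

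Ef2b, the eEF2 gene, had 1607, 1336 and 1478 FPKM in the Inputs of neurons, glia and fat body. Its IPs had 1000 FPKM in neurons, 1091 in glia and 3024 in the fat body. The eIF-5A gene, whose product helps ribosomes through stretches that are hard to translate and is now named eEF5, had 1330.3, 1155 and 1193 FPKM in the Inputs and 693, 1009.8 and 3128 in the IPs. For both genes the fat body IP was the highest of the 6 groups and the neuron IP the lowest.

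Ef1beta, Ef1gamma, eEF1delta, Ef2b and eIF-5A were each higher in the fat body IP than in both other IPs. In the authors' deposited table the largest q of these 10 tests was 0.000583, for Ef2b between fat body and neurons. Between glia and neurons none of the 5 passed, with q from 0.293 to 0.886 in the authors' deposited table. Over the 7 elongation genes the median log2 of fat body IP over neuron IP was 2.15 as deposited and 1.42 under total scaling, in which the columns are brought to 1 sum that leaves ribosomal protein genes out.

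Both eIF2 subunits in the group, which carry the initiator tRNA with another subunit that the name rule did not find, were higher in the fat body IP than in both others. The eIF-2beta gene had 89.9, 70.2 and 69.8 FPKM in the Inputs of neurons, glia and fat body and 113, 114 and 383 in the IPs. The eIF-2alpha gene, whose product is phosphorylated when stress shuts initiation down, had 79.3, 79.8 and 83.1 FPKM in the Inputs and 93.3, 97.5 and 237 in the IPs. The neuron and glia IPs were thus nearly equal for both genes, within 1.05-fold, and the fat body IP stood 2.43-fold to 3.40-fold above them. In the authors' deposited table the 4 tests against the fat body IP had q of at most 0.00694.

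The 5 subunits of eIF2B, the factor that exchanges the nucleotide on eIF2, formed a different pattern. eIF2B-beta had 30.7, 24.1 and 25.5 FPKM in the Inputs of neurons, glia and fat body and 89.9, 57.3 and 55.7 in the IPs, so it was highest in neurons. eIF2B-alpha had 18.2, 14.3 and 15.6 FPKM in the Inputs and 39.3, 34.8 and 45.2 in the IPs. Alpha and beta are regulatory subunits, and both were above every Input in every IP.

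The catalytic subunits gamma and epsilon were lower than alpha and beta in every group, and so was delta. eIF2B-gamma had 15.2, 12.7 and 14.1 FPKM in the Inputs of neurons, glia and fat body and 28.5, 16.6 and 33.8 in the IPs. eIF2B-epsilon had 8.87, 6.49 and 6.89 FPKM in the Inputs and 13.2, 8.51 and 16.02 in the IPs. eIF2B-delta, a further regulatory subunit, had 10.2, 9.05 and 8.88 FPKM in the Inputs and 19.8, 12.6 and 25.0 in the IPs, below gamma in every group. All 3 had their lowest IP in glia, as eIF2B-alpha did.

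All 5 eIF2B genes were above their Inputs in all 3 cell types on the deposited scale, with median log2 of 0.90 in neurons, 0.44 in glia and 1.20 in the fat body, but the glia median turned to -0.030 under median scaling, which centres genes with 5 FPKM or more in every group on 0, and to -0.25 under total scaling, and the fat body median to -0.22 under total scaling. Of the 5, the genes of gamma, delta and epsilon were higher in the fat body IP than in the glia IP (q = 2.04e-06, 0.0129 and 0.0405 in the authors' deposited table). None of the 5 differed between fat body and neurons, with q from 0.367 to 0.952 in the authors' deposited table, or between glia and neurons, with q from 0.257 to 0.942.

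Within each column, the mean FPKM of the eIF2 pair was 5.09-fold the mean of eIF2B in the neuron Input, 5.63-fold in the glia Input and 5.38-fold in the fat body Input. In the IPs this ratio was 2.70 in neurons, 4.07 in glia and 8.82 in the fat body. The ratio is free of column scaling, and no test of it could be made.

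Of the eIF3 complex, which holds the small subunit ready for the mRNA, 5 subunits carry matching names. eIF-3p40, now eIF3h, had 222, 204 and 216 FPKM in the Inputs of neurons, glia and fat body and 230.3, 207 and 416 in the IPs. eIF-3p66, now eIF3d1, had 77.0, 76.5 and 83.3 FPKM in the Inputs and 97.6, 107 and 254 in the IPs. eIF3-S8, now eIF3c, had 86.6, 79.9 and 91.6 FPKM in the Inputs and 73.5, 87.1 and 194 in the IPs.

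The core subunit eIF3-S9, now eIF3b, had 133, 106 and 136 FPKM in the Inputs of neurons, glia and fat body and 118, 88.3 and 213 in the IPs. eIF3-S10, now eIF3a, had 72.6, 65.5 and 70.3 FPKM in the Inputs and 61.6, 53.9 and 104 in the IPs. All 5 genes had their highest value in the fat body IP. In the authors' deposited table all 5 were higher in the fat body IP than in the glia IP, with q of at most 2.29e-08. Against neurons, eIF-3p66 and eIF3-S8 passed (q = 0.00252 and 0.00155) and the other 3 did not, with q from 0.0996 to 0.132 in the authors' deposited table. Their fat body to neuron ratios ran from 1.69 to 2.64, and the test of the difference between subunits was not made.

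The eIF4F genes moved apart from one another. The cap-binding eIF-4E had 200.1, 163 and 169 FPKM in the Inputs of neurons, glia and fat body and 356, 228 and 361 in the IPs, so neurons and fat body had like values (1.01-fold, q = 0.994 in the authors' deposited table), with the fat body at -0.72 to neurons on the log2 scale under total scaling. The scaffold eIF4G had 37.1, 26.3 and 30.9 FPKM in the Inputs and 19.9, 23.0 and 53.4 in the IPs, and the fat body IP was 2.69-fold the neuron IP (q = 0.00336 in the authors' deposited table). As a ratio within each column, eIF-4E over eIF4G was 5.40, 6.19 and 5.46 in the Inputs and 18.0, 9.93 and 6.76 in the IPs of neurons, glia and fat body.

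The helicase gene eIF-4a had 1216, 1045 and 1124 FPKM in the Inputs and 788, 732 and 1548 in the IPs. Its cofactor eIF-4B had 138, 98.4 and 116 FPKM in the Inputs and 102, 63.3 and 119 in the IPs. Both were highest in the fat body IP, by 1.96-fold and 1.17-fold over neurons on the deposited scale. In the authors' deposited table all 4 genes were higher in the fat body IP than in glia, with q of at most 0.00102, although eIF-4E turned to -0.14 on the log2 scale under total scaling. Only eIF4G passed against neurons, eIF-4a having q = 0.0546 in the authors' deposited table.

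Thor, the binding protein that keeps eIF4E from eIF4G, is named here for its relation to eIF-4E. It had 134, 183 and 222 FPKM in the Inputs of neurons, glia and fat body and 139.7, 329 and 501 in the IPs. The neuron IP was below both others (q = 0.0200 against glia and 0.000142 against fat body), and the fat body was above glia (q = 0.000632), in the authors' deposited table, although the last turned to -0.19 on the log2 scale under total scaling. Thor over eIF-4E was 0.392 in the IP of neurons, 1.44 in that of glia and 1.39 in that of the fat body, against 0.670, 1.12 and 1.31 in the Inputs.

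Of the factors for scanning and subunit joining, eIF6 had the widest difference. Its Inputs had 19.5 FPKM in neurons, 18.4 in glia and 21.2 in the fat body. Its IPs had 33.2, 31.8 and 134 FPKM, so neurons and glia had like values and the fat body was 4.04-fold and 4.22-fold above them (q = 0.00848 and 4.44e-15 in the authors' deposited table). On the deposited scale it was 6.33-fold above its Input in the fat body, the highest IP to Input ratio in that cell type among the 36 genes, and it stayed above under both other scalings.

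The start-site factors did less. eIF-1A had 329.6, 233 and 253 FPKM in the Inputs of neurons, glia and fat body and 187, 217 and 369.5 in the IPs, with the fat body above neurons (1.98-fold, q = 0.0456 in the authors' deposited table). eIF5 had 139.7, 93.4 and 101 FPKM in the Inputs and 138, 74.7 and 111 in the IPs, so its highest IP was that of neurons, without passing against either (q = 0.101 and 0.667 in the authors' deposited table). eIF5B had 29.1, 25.1 and 24.2 FPKM in the Inputs and 43.4, 28.2 and 55.4 in the IPs.

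All 4 genes of this class were higher in the fat body IP than in glia (largest q = 0.00184, for eIF5, in the authors' deposited table), but eIF5 and eIF-1A turned to -0.23 and -0.028 on the log2 scale under total scaling. Within each column, eIF6 over eIF5 was 0.140, 0.196 and 0.210 in the Inputs and 0.242, 0.426 and 1.21 in the IPs of neurons, glia and fat body. In a later annotation the exons of eIF5 overlap those of CG46312 on the same strand, so its reads cannot be assigned to 1 gene with certainty.

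The release factor eRF1 had 89.8, 73.1 and 75.4 FPKM in the Inputs of neurons, glia and fat body and 75.9, 93.0 and 153 in the IPs. It was higher in the fat body IP than in glia (1.65-fold, q = 5.52e-05 in the authors' deposited table), which turned to -0.078 on the log2 scale under total scaling, and did not pass against neurons (2.02-fold, q = 0.0760 in the authors' deposited table). Its partner eRF3 is listed as Elf and had 38.4, 28.7 and 27.9 FPKM in the Inputs and 11.5, 18.5 and 50.7 in the IPs. Elf was higher in the fat body than in both others (q = 0.00375 and 8.78e-12 in the authors' deposited table). eRF1 thus exceeded Elf 6.58-fold in the IP of neurons, 5.03-fold in that of glia and 3.02-fold in that of the fat body, and 2.34-fold to 2.70-fold in the Inputs.

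Besides the factors of cytosolic translation, the name rule brought in 2 genes with other tasks. EfTuM encodes the elongation factor Tu of mitochondria and had 57.8, 47.3 and 49.4 FPKM in the Inputs of neurons, glia and fat body and 161, 77.5 and 185 in the IPs. The glia IP was below both others (q = 0.0475 against neurons and 1.14e-12 against fat body), while neurons and fat body did not pass (q = 0.822), in the authors' deposited table. eIF4AIII, the helicase of the exon junction complex, had 22.2, 15.7 and 17.1 FPKM in the Inputs and 51.7, 28.2 and 33.0 in the IPs, highest in neurons, and no pair passed (smallest q = 0.203 in the authors' deposited table).

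The other mitochondrial elongation gene listed for comparison, ico, now mEFG1, was also lowest in the glia IP. It had 8.39, 5.36 and 5.87 FPKM in the Inputs and 18.2, 4.68 and 12.1 in the IPs of neurons, glia and fat body. The glia IP was below both others (q = 0.000350 and 1.89e-09 in the authors' deposited table).

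A set of 6 low-expressed genes encodes further forms of the cap-binding protein and the scaffold. eIF4E-3 had 1.57, 7.86 and 1.97 FPKM in the Inputs of neurons, glia and fat body and 0.500, 2.70 and 1.29 in the IPs. eIF4E-4 had 2.00, 8.58 and 2.57 FPKM in the Inputs and 0.531, 2.42 and 1.98 in the IPs. eIF4E-5 had 2.13, 9.51 and 2.80 FPKM in the Inputs and 0.516, 3.47 and 1.87 in the IPs. All 3 were highest in the glia Input, and so was eIF4E-7 with 3.00 FPKM there, 0.737 and 1.05 in the other Inputs, and 0.116 to 1.66 in the IPs. They supplied 15.1% of all eIF4E FPKM in the glia Input, against 3.11% in the neuron Input and 4.72% in that of the fat body. Their share was 4.23% in the glia IP, 0.464% in neurons and 1.52% in the fat body.

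These copies were higher in the glia IP than in the neuron IP, with q from 7.78e-06 for eIF4E-7 to 0.0270 for eIF4E-4 in the authors' deposited table. Against the fat body IP none passed, the smallest q being 0.0754 in the authors' deposited table. Their glia IPs nevertheless lay below their glia Inputs, and for eIF4E-3, eIF4E-4 and eIF4E-5 the log2 of glia IP over Input was -1.26, -1.49 and -1.23. With the mean of the neuron and fat body Inputs in place of the glia Input the 3 values became 0.42, 0.057 and 0.37.

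Genes of the testis moved with these copies. Of 21 testis genes listed after the values had been seen, 19 were higher in the glia Input than in the neuron Input and 20 than in the fat body Input. Their sum was 635 FPKM in the glia Input, 139 in the neuron Input and 168 in the fat body Input. In the IPs it was 172, 33.7 and 90.3 FPKM, and 21 of 21 were lower in the glia IP than in the glia Input. None of the 21 was at 0 in any group, and their part in the values of the eIF4E copies was not tested.

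eIF4E-6 behaved otherwise, with 0.914, 0.564 and 0.741 FPKM in the Inputs of neurons, glia and fat body and 0.658, 3.73 and 1.07 in the IPs. Of the 5 eIF4E copies it was the 1 copy not highest in the glia Input among Inputs, and its glia IP was above that Input by 1.60 on the log2 scale of (FPKM + 1). The glia IP was above the neuron IP (q = 0.0271) and did not pass against the fat body IP (q = 0.207), in the authors' deposited table. eIF4G2, a second scaffold gene, had 10.5, 8.85 and 9.16 FPKM in the Inputs and 0.959, 1.11 and 1.30 in the IPs, so every IP was below every Input. Its IPs did not differ past the threshold (q from 0.721 to 0.944 in the authors' deposited table). The copies of eIF4E are alike in sequence, so reads may have been shared among them, and the exons of eIF4G2 overlap those of CG33111 on the same strand in a later annotation.

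**Figure D3:**
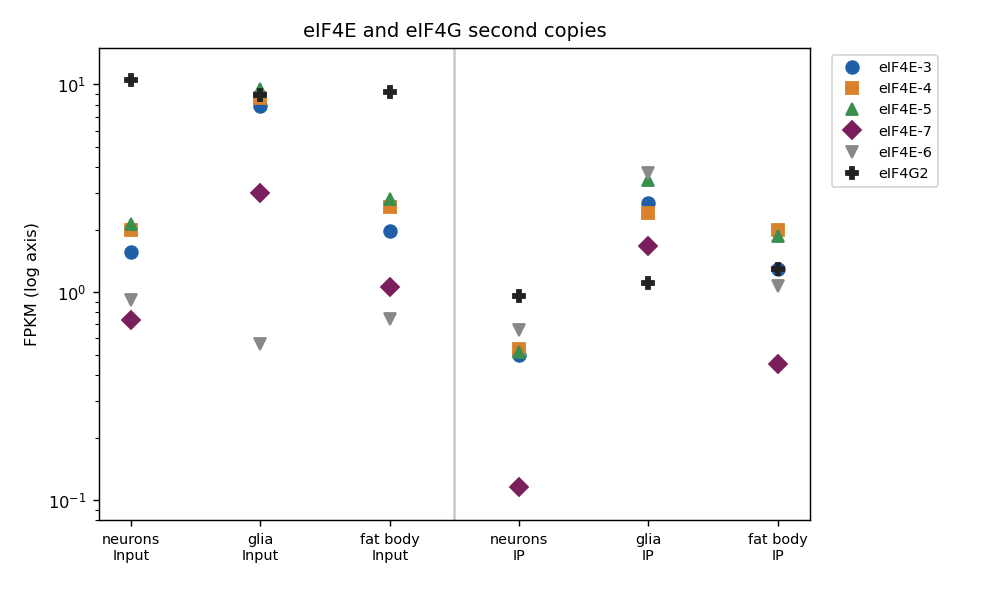
FPKM (log axis) of the low-expressed copies of eIF4E and eIF4G in each Input and IP, 1 value per group. eIF4E-3, eIF4E-4, eIF4E-5 and eIF4E-7 peak in the glia Input (3.00 to 9.51 FPKM), eIF4E-6 in the glia IP (3.73 FPKM), and eIF4G2 is at 1.30 FPKM or less in every IP.

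Set against their Inputs on the deposited scale, translation factors were about as often higher as lower in the neuron and glia IPs. In the fat body IP they were more often higher. Neither rescaling kept these patterns. In neurons and glia both left more genes lower than higher. In the fat body median scaling left about as many higher as lower, and total scaling left more lower. In neurons 4 of 36 were at least 2-fold higher and 4 lower, where 19% and 13.1% of all genes were. In glia 3 were higher and 5 lower, against 18.7% and 19.7% of all genes. In the fat body 20 were higher and 2 lower, against 27.5% and 10.2% of all genes. The share of higher genes rose with level. Among genes with 5 FPKM or more in every group it was 43.3%, against 66.7% of the 30 translation factors at that level. With 50 FPKM or more it was 64.0%, against 60% of 20 translation factors. Median scaling left 4 higher and 3 lower in the fat body (10% and 26.9% of all genes). Total scaling left 1 and 9 (4.2% and 43.5%). Neurons had 0 higher and 13 lower under both, where all genes had 6.93% and 25% by the median and 7.11% and 25.1% by the total. Glia had 1 higher and 10 lower under median scaling (9.57% and 31.9% of all genes) and 1 and 15 under total scaling (7.19% and 36.7%).

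The scale matters for this comparison because abundant genes as a whole were above their Inputs. Over the 5599 genes with 5 FPKM or more in every group, the median log2 of IP over Input was 0.40 in neurons, 0.49 in glia and 0.82 in the fat body as deposited, and -0.14, -0.22 and -0.59 under total scaling. The 30 translation factors among them had deposited medians of 0.02, 0.07 and 1.10. They were thus below the median of these genes in neurons and glia and above it in the fat body. Among the 908 genes with 50 FPKM or more in every group, the 20 translation factors were below the median in all 3 cell types, with -0.24 against 0.29 in neurons, -0.23 against 0.51 in glia and 1.05 against 1.37 in the fat body as deposited.

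By direction alone, 16 of 36 (44.4%) were above their Input in the fat body and below it in neurons, against 16.2% of all genes at 1 FPKM. Another 14 (38.9%, against 32.9% of all genes) were above their Input in every cell type, which were eIF-2alpha, eIF-2beta, the 5 eIF2B genes, eIF-4E, eIF-3p40, eIF-3p66, eIF5B, eIF6, eIF4AIII and EfTuM. The 5 below it in every cell type (13.9%, against 27.7% of all genes) were all copies of eIF4E and eIF4G. These counts are on the deposited scale and were not matched for abundance. Both scalings lower each value of IP over Input. Under median scaling eIF2B-alpha, eIF2B-beta, eIF6, eIF4AIII and EfTuM stayed above their Input in every cell type. Under total scaling eIF2B-alpha and eIF6 alone did. Above Input in the fat body and below it in neurons under total scaling were eIF-2alpha, eIF-2beta, eIF-3p66 and eEF1delta alone.

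**Figure D4:**
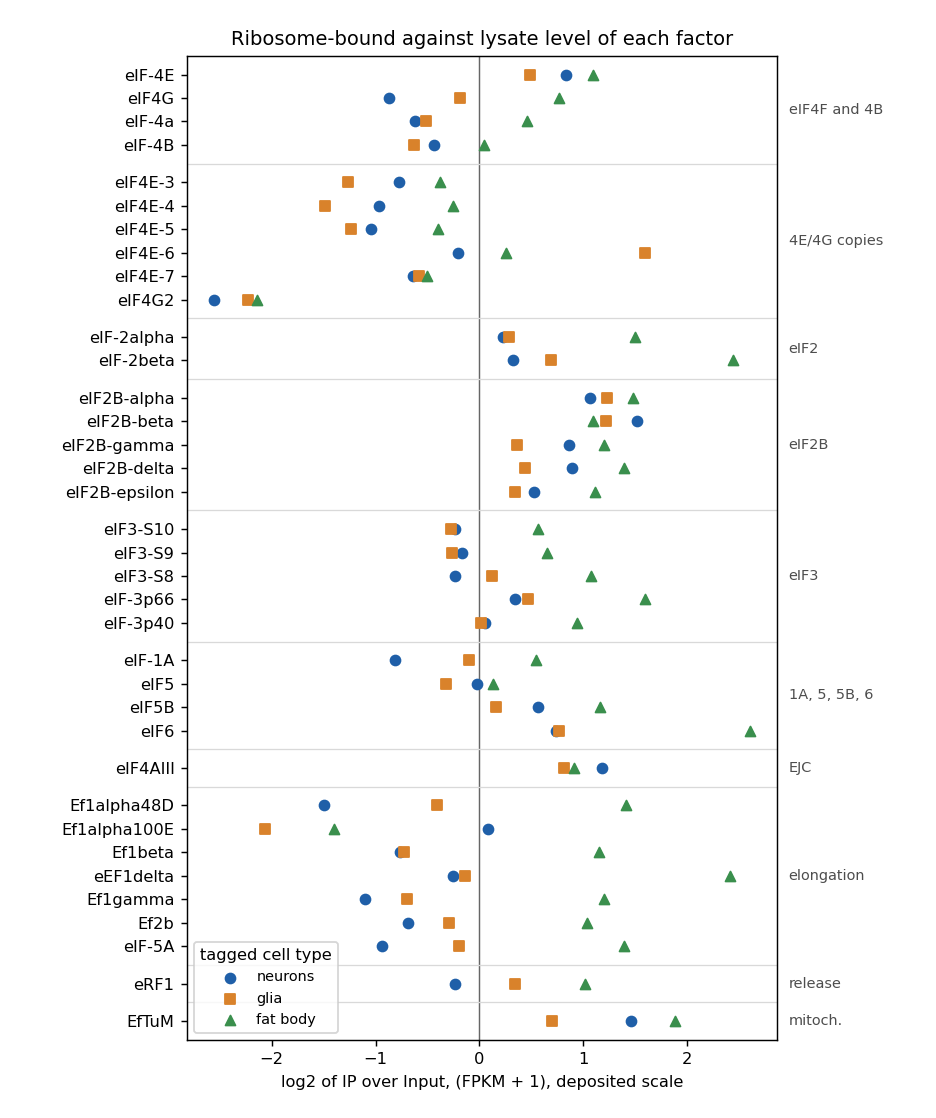
log2 ratio of IP to Input, (FPKM + 1), of the 36 genes by class, with 1 point per cell type on the deposited scale. In the fat body 29 of the 30 genes other than the eIF4E and eIF4G copies lie above 0, with Ef1alpha100E at -1.40.

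Between IPs more translation factors were called between fat body and glia than between fat body and neurons. The same held among all genes, of which 44.5% and 21.3% were called in either direction. By the authors' deposited table, 26 of 36 were higher in the fat body IP than in the glia IP and 0 lower, where 31.6% and 12.9% of all genes were. Under total scaling 4 of the 26 turned lower. Against neurons 12 were higher in the fat body and 1 lower, where 11.9% and 9.32% of all genes were. Between glia and neurons 5 were higher in glia, the eIF4E copies, and 2 lower, Ef1alpha100E and EfTuM, where 15.3% and 15.5% of all genes were. The 3 pairs share their samples, so the counts are not independent of one another, and the difference between the counts was not tested.

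The share of genes called depended on their level, so the counts were also set against genes of like abundance. Among the 5599 genes with 5 FPKM or more in every group, 45.5% were higher in the fat body IP than in glia, against 86.7% of the 30 translation factors. For fat body against neurons the shares were 17.0% and 40%. Among the 908 genes with 50 FPKM or more in every group they were 65.4% and 95% against glia, and 37.6% and 50% against neurons, the latter over 20 translation factors. The highest IP was that of the fat body in 27 of 36 (75%) on the deposited scale, against 32.6% of all genes at 1 FPKM. This last comparison was not matched for abundance and was not rescaled.

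**Figure D5:**
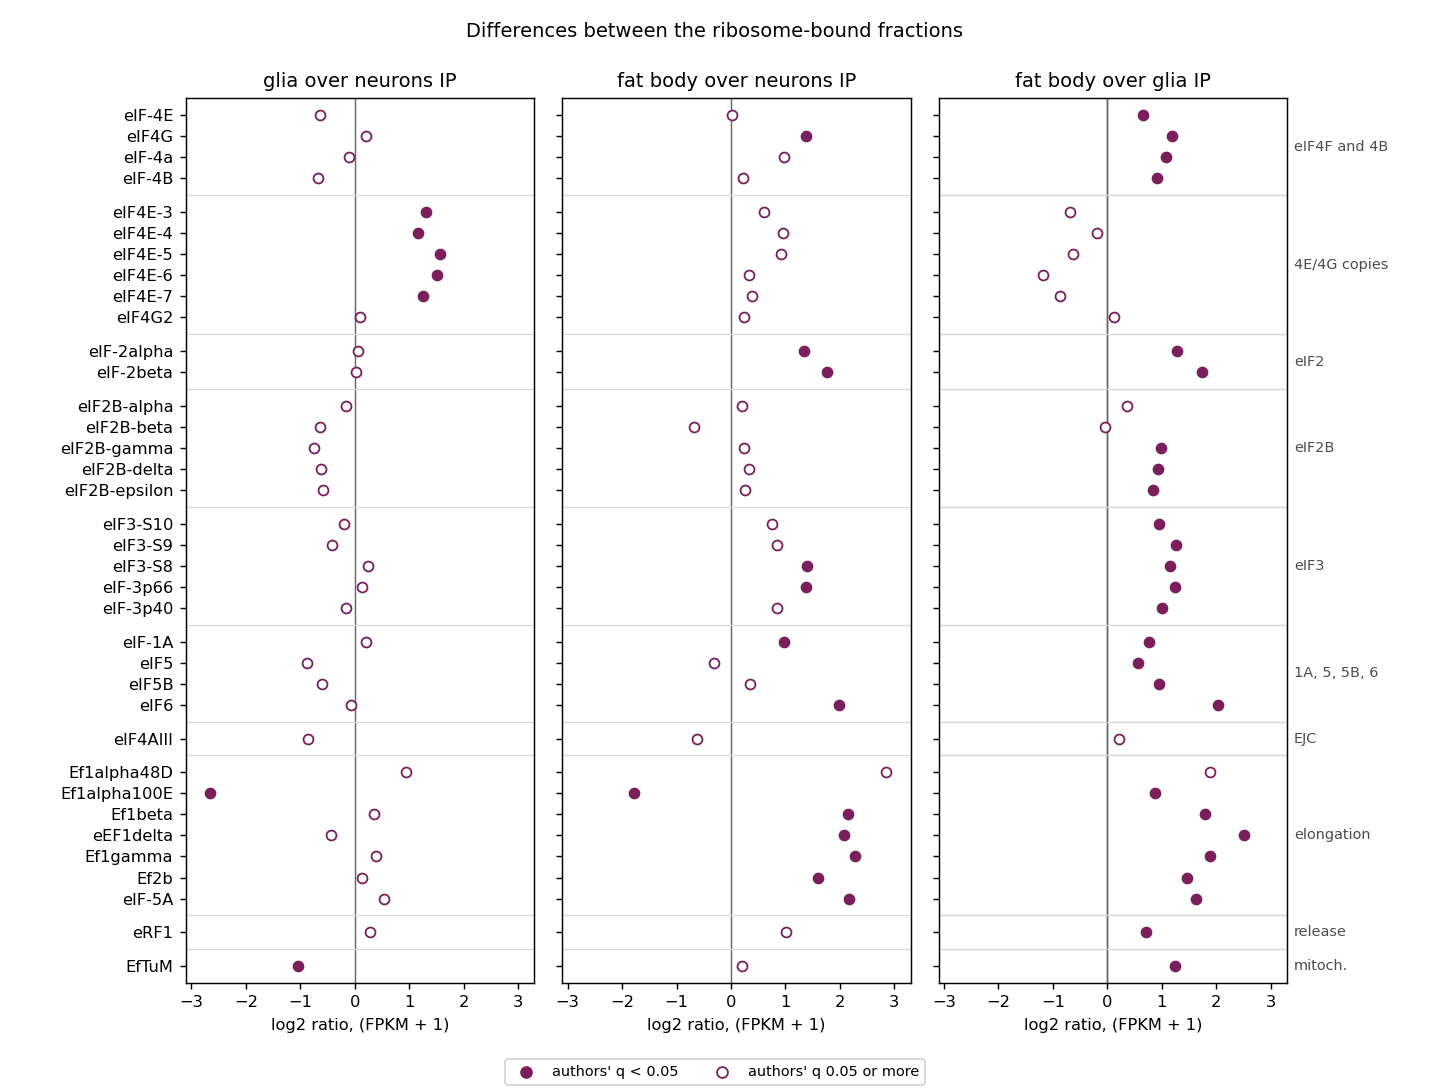
log2 ratio, (FPKM + 1), between each pair of IPs for the 36 genes by class on the deposited scale, with filled points for an authors' q under 0.05. Filled points lie to the right in the fat body over glia panel (26 genes), and to the left of 0 in the glia over neurons panel for Ef1alpha100E and EfTuM.

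The size a ratio needed to pass depended on the pair and the level. Between glia and fat body eIF5 passed at 1.48-fold (q = 0.00184), whereas eIF4E-7 did not at 3.67-fold (q = 0.0754), in the authors' deposited table. Between neurons and fat body the smallest ratio that passed was that of eIF-1A, at 1.98-fold. Between neurons and glia it was that of EfTuM, at 2.07-fold, and eIF5 did not pass at 1.84-fold (q = 0.101 in the authors' deposited table). The authors' tests thus called smaller ratios with glia and fat body than with neurons, and a missed threshold in the pairs with neurons does not show equal levels.

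Set as the change from Input, 15 of 36 had at least a 2-fold higher IP to Input ratio in the fat body than in neurons and 1 lower, where 18.4% and 9.77% of all genes had. Against glia 12 were higher and 1 lower, where 15.3% and 9.97% of all genes were. Among genes with 5 FPKM or more in every group 25.1% were higher against neurons and 20.6% against glia. Of the 30 translation factors at that level 50% and 36.7% were. With 50 FPKM or more the shares were 42.6% and 41.6%, and 65% and 45% of 20 translation factors. Between glia and neurons 2 were higher in glia, Ef1alpha48D and eIF4E-6, and 1 lower, Ef1alpha100E, where 16.2% and 13.5% of all genes were. These counts rest on a fold and not on a test, and under total scaling the first count became 6 higher and 3 lower, where 8.56% and 27.8% of all genes were.

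Other genes of the translation machinery shared the order of the fat body and glia IPs. Of the 92 cytosolic ribosomal protein genes, 82 were higher in the fat body IP than in glia and 80 than in neurons, with median log2 of 1.71 and 1.87, by the authors' deposited table. Of the 21 aminoacyl-tRNA synthetase genes, which charge tRNAs, 20 were higher in the fat body IP than in glia, but 2 than in neurons, by the same table, with 1 of the 20 turned lower under total scaling. For the translation factors the counts were 26 and 12 of 36, with medians of 0.94 and 0.85. Of all genes, 31.6% were higher in the fat body IP than in glia and 11.9% than in neurons. The synthetases, at a median log2 of 0.71 in neurons and 0.46 in glia, lay above their Inputs on the deposited scale. The ribosomal protein genes lay below their Inputs at -0.27 and -0.18. Genes with 5 FPKM or more in every group had medians of 0.40 and 0.49, so the glia value of the synthetases was near theirs. Some of the synthetase genes, such as Aats-ala-m, encode mitochondrial enzymes.

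Of 9 further proteins of initiation, ribosome rescue and termination that the table lists under other names, 7 were higher in the fat body IP than in glia, 3 than in neurons and 0 lower in either, by the authors' deposited table. Of all genes, 31.6% and 11.9% were higher in these pairs, and 12.9% and 9.32% lower. The 7 include pelo and HBS1, which release stalled ribosomes, with 19.99, 18.1 and 33.8 FPKM and 29.8, 22.3 and 47.7 FPKM in the IPs of neurons, glia and fat body. NAT1, a relative of eIF4G, and bel, a helicase, passed in no pair.

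A larger set of 19 genes that a later annotation names as translation factors, 5 of them among those 9, was added after the values had been seen. Of these, 12 were higher in the fat body IP than in glia, 4 than in neurons, and 0 lower in either, by the authors' deposited table, with 1 of the 12 turned lower under total scaling. In these pairs 31.6% and 11.9% of all genes were higher, and 12.9% and 9.32% lower. The 19 include eIF3 subunits such as Adam, now eIF3j, with 129.8, 112 and 321 FPKM in the IPs of neurons, glia and fat body (q = 0.00387 against neurons and 0 against glia in the authors' deposited table). CG17737, now eIF1, had 681, 539 and 862 FPKM in the IPs and passed against glia alone (q = 0.000163 in the authors' deposited table). It was the 1 of the 12 that turned lower under total scaling. Second copies of eIF3 and eIF4H subunits (CG4810, CG8335, CG10881 and CG1340) were, like the eIF4E copies, higher in the glia Input than in both other Inputs, 4 of 4, with a median ratio of 5.56 over the neuron Input.

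A further list of 15 genes held regulators of initiation, such as kinases and partners of eIF4E. It also held genes such as Hel25E and crc, which do not regulate initiation directly. Of the 15, 8 were higher in the fat body IP than in glia by the authors' deposited table. Of all genes 31.6% were. Under total scaling 5 of the 8 turned lower, and Hel25E, S6k and Paip2 stayed higher. Among genes with 5 FPKM or more in every group, 45.5% were higher in the fat body IP than in glia and 17.0% than in neurons. Against neurons 3 of the 15 were higher by the same table, where 11.9% of all genes were. The 3 were Thor, S6k, the kinase of ribosomal protein S6, with 2.94, 5.51 and 16.3 FPKM in the IPs of neurons, glia and fat body, and Lk6, a kinase of eIF4E, with 27.6, 52.8 and 74.7 FPKM. Both S6k and Lk6 were below their Inputs in every cell type, the Inputs being 18.7 to 29.0 FPKM and 105 to 150.2 FPKM.

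Transcript length ran with the IP to Input ratio across genes. Over 5313 genes with 5 FPKM or more in every group, Spearman's rho between log2 IP over Input and the longest annotated transcript was -0.41 in neurons, -0.43 in glia and -0.49 in the fat body. Over the 30 translation factors without the eIF4E and eIF4G copies it was -0.16, -0.32 and -0.49. Genes in 1 column share their library and are not independent, so these values are descriptions. In that annotation the exons of 14 of the 36 overlap another gene, mostly on the opposite strand, and whether the counting used strand is not given in the sources used here. The median length of the 36 was 1670 bases, against 1764 for the 5313 genes, and the part of length in the results was not tested.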

How the data were processed

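RNA-seq of Input and IP RNA covered 12 samples in 6 groups. The submitters' processing notes name the genome build BDGP5 and the tools Cuffdiff 2.0.2, Cufflinks 2.0.2 and TopHat2 2.0.6. The authors deposited 1 FPKM per gene and group, on a linear scale, combined over both replicates. They also deposited a q-value per gene for each of 3 pairs of IPs. The annotation release, strandedness and how replicates were combined are not given in the sources used here. Columns of other samples numbered 0. Per-library tests had been planned and could not be run, and no interval could be computed.

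Log2 ratios of FPKM + 1 were computed over genes that reached 1 FPKM in any group and were not listed at 0 in either group compared, and counted past 2-fold or at an authors' q under 0.05. The q-values do not change with scaling. Alternatives were median scaling, total scaling without ribosomal protein genes, a pseudocount of 0.1, other filters and other thresholds. All 36 genes are accounted for, those with 5 FPKM or more individually. The genes and the lists beside them were chosen with earlier results of these data known, and 3 lists were added after values were seen. Current names, transcript lengths and exon overlaps came from a later annotation, matched by gene identifier for 33 genes and by synonym for 3. Calculations used Python 3.11.15, numpy 2.4.6, pandas 2.3.3 and scipy 1.17.1, with matplotlib 3.10.9 for figures, and were tested on simulated data.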

Additional observations from a re-analysis of the deposited data

How the results depend on the processing

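No paired analysis was possible because the table holds 1 value per group, and for the same reason no replicate could be left out. Of 225 counts of genes recomputed under the alternatives, 175 stayed within 1.5 times the reported count and 50 did not, and the cause was not tested. Leaving out the filter on low values moved none of them. No call by the authors' q changes with scaling, since the q-values are fixed, but its direction can. The counts below are of all 36 genes, or of those left by a stricter filter.

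For IP against Input, neurons had 13 genes past 2-fold under median and under total scaling, 0 higher and 13 lower, and 7 lower with a pseudocount of 0.1. Past 1.5-fold they had 21, with 8 higher and 13 lower. Glia had 1 higher and 10 lower under median scaling, 16 under total scaling with 1 higher and 15 lower, and 16 past 1.5-fold with 7 higher and 9 lower. With the mean of the neuron and fat body Inputs in place of the glia Input, an alternative chosen after seeing the data, glia had 5, of which 2 were lower. The fat body had 7 under median scaling, 4 of them higher, and 10 under total scaling, with 1 higher and 9 lower.

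Between the IPs of neurons and glia the authors' deposited table gave 2 calls and 0 higher in glia among genes with at least 5 FPKM, and 4 calls at an authors' q under 0.01, with 3 higher and 1 lower. Between glia and fat body 4 of the called genes turned lower under total scaling, eIF-4E at -0.14, eIF-1A at -0.028, eIF5 at -0.23 and eRF1 at -0.078 on the log2 scale. Between the Inputs of neurons and fat body 1 gene was lower past 1.5-fold.

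For the difference in IP over Input between glia and neurons, 1 gene was higher in glia under total scaling and 1 with at least 5 FPKM. Past 1.5-fold 7 differed, with 5 higher and 2 lower, and with the replaced glia Input 6 differed, with 5 higher. Between fat body and neurons total scaling gave 9, with 6 higher and 3 lower. Between fat body and glia total scaling gave 7, with 6 higher, the 5 FPKM filter gave 0 lower, the 1.5-fold threshold gave 30, with 29 higher, and the replaced glia Input gave 23, with 22 higher.

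Among values past 2-fold on either scale, 15 of log2 fat body IP over Input turned negative under total scaling. They were -0.077 for Ef1alpha48D, -0.46 for Ef2b, -0.33 for Ef1beta, -0.28 for Ef1gamma, -0.098 for eIF-5A, -1.03 for eIF-4a, -0.39 for eIF-4E, -1.43 for eIF-4B, -0.35 for eIF2B-beta, -0.22 for eIF2B-gamma, -0.24 for eIF2B-epsilon, -0.40 for eIF3-S8, -1.34 for eIF5, -0.29 for eIF5B and -0.46 for eRF1. By the same rule, log2 glia IP over Input turned positive with the replaced glia Input for eIF4E-3 (0.42), eIF4E-4 (0.057) and eIF4E-5 (0.37). Their differences between glia and neurons turned to 1.19, 1.03 and 1.42, and that of eIF4E-4 between fat body and glia to -0.32. The unknown depth limits every statement on genes near 1 FPKM.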
